A study of Zea mays subsp. mays with 11 samples.

Results

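The loci described here are 73 low-abundance maize 21-PHAS loci whose Argonaute-loaded small RNA stayed at a similar level between 2-mm and 5-mm anthers of ago18 heterozygous plants. A PHAS locus is a stretch of the genome that yields phased small interfering RNAs (phasiRNAs), and a 21-PHAS locus yields those of 21 nt. The loci were chosen from measured values: a mean below 50 CPM (reads at a locus scaled to a fixed library total) over the 6 heterozygous libraries, and a ratio of the 5-mm to the 2-mm heterozygous mean, with 1 CPM added to each, above 0.667 and below 1.4. A further 13 loci were left out by number, of which 4 met all of these thresholds (B73_21PHAS_6427, B73_21PHAS_7645, B73_21PHAS_7757 and B73_21PHAS_21103). The 73 loci made up 17.0% of the 430 21-PHAS loci and 11.1% of the 659 PHAS loci measured, and the other 357 21-PHAS loci serve as the comparison.

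The 11 libraries were made from small RNA that the TraPR kit isolates as bound to Argonaute (AGO) proteins. In ago18HM plants all AGO18 copies were homozygous mutant, with ago18a;b null alleles made with CRISPR-Cas9 and an ago18c null allele from a Mu transposon insertion. Their ago18HT siblings carried the same alleles in the heterozygous state, so that every group carried mutant alleles and no wild type is included. Anthers of 2 mm are meiotic and those of 5 mm postmeiotic. The ago18HT group had 3 libraries at either length, and the ago18HM group had 2 at 2 mm and 3 at 5 mm, from distinct, transgene-free plants. The label of every library gives the genotype as mostly B73. The table holds PHAS loci only, so neither the AGO18 genes nor markers of anther cell types could be checked in it.

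Reproductive 21-nt phasiRNAs arise from noncoding transcripts of RNA polymerase II that miR2118 directs to be cut, that are then made double-stranded, and that a Dicer-like enzyme cuts into successive duplexes from the cleaved end. One strand of a duplex is kept by an AGO protein, and the 5′ base of a small RNA is among the features by which plant AGO proteins sort their cargo. In grasses these phasiRNAs are best known from early anthers, and in maize AGO18b has been found with both 21-nt and 24-nt phasiRNAs.

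The most abundant small RNA of each locus was taken from the locus annotation of the study, not from the Argonaute-loaded libraries described here. It is printed 5′ to 3′ as RNA for the loci that the comparisons below turn on, with the 5′ base in capitals. First come the 5 loci that were higher in ago18HM than in ago18HT at 5 mm.
B73_21PHAS_17107: Ccgugcgccaacugucaccuc
B73_21PHAS_54320: Agaccaguugcgguacaaggc
B73_21PHAS_17599: Augguagguccauaggucggc
B73_21PHAS_39478: Aucaagauuauuagaaggcua
B73_21PHAS_3910: Auuggcgagucuucgguacaa
Next are the other loci that changed between lengths in ago18HM, the first pair higher and the last 3 lower at 5 mm.
B73_21PHAS_38212: Aacaaauagaugcaaggacug
B73_21PHAS_35650: Aagucuucuagguggauacgc
B73_21PHAS_10416: Cgccgauguuucuucagccug
B73_21PHAS_21145: Aguuuguagauaggagugugg
B73_21PHAS_53909: Auggaugagagggauucacug
Last are the 3 loci whose replicates differed the most.
B73_21PHAS_7636: Augcggacggaacaugcaugc
B73_21PHAS_7747: Auaggaugacucuaagggcua
B73_21PHAS_52784: Acuggaucucuagcaucacug

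All 73 of these RNAs were 21 nt long, and 58 of them (79.5%) began with A. C began 8 (11%), G began 5 (6.85%) and U began 2 (2.74%). Among the other 357 21-PHAS loci the shares were 74.5% A, 13.4% C, 7.0% G and 5.04% U, so the order of the 5′ bases was the same in both sets. A was found at position 19, counted from the 5′ end, in 0 of the 73 RNAs and in 1.12% of those of the other loci, while C stood there in 45.2% and 43.0%. The median GC content was 42.9% (range 28.6% to 66.7%) against 47.6% in the other loci. Loci with a 5′ A had a median level of 30 CPM and those with a 5′ C of 19.4 CPM. These shares are descriptions, since the annotated RNA of a locus need not be its most abundant one in the libraries described here.

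Few of the 73 loci shared their most abundant RNA with another locus. B73_21PHAS_54544 and B73_21PHAS_54549, both among the 73 and 17386 bp apart on chromosome 10, differed by 1 base (G21U, with B73_21PHAS_54544 given first and positions counted from the 5′ end), shown here in capitals.
B73_21PHAS_54544: acacucaugcacguagaacaG
B73_21PHAS_54549: acacucaugcacguagaacaU
The RNA of B73_21PHAS_7747 was identical to that of B73_21PHAS_7744, a locus left out by number 30625 bp away on chromosome 1. The RNA of B73_21PHAS_52763 was identical to that of B73_21PHAS_52778, which fell from 2 mm to 5 mm in ago18HT and lies 110897 bp away on chromosome 10. The RNA of B73_21PHAS_53909 on chromosome 10 was identical to that of B73_21PHAS_21287, a locus on chromosome 4 that also fell in ago18HT. Reads that map to several positions were counted at each, so the levels of loci that share a sequence are not independent of each other.

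The mean level over all 11 libraries ran from 1.74 to 61.2 CPM, with a median of 29.5 CPM, against a median of 152 CPM in the other 21-PHAS loci. Of the 73 loci, 17 were below 10 CPM, 20 were from 10 to 30 CPM and 36 were above. None was at 0 in any library. The lowest value of all was 3 reads, at B73_21PHAS_53638 in ago18HT-5mm replicate 2, and the median locus had between 133 and 1324 reads depending on the library. Locus length had a median of 816 bp (317 to 2622 bp) against 964 bp in the other loci, and per kilobase of locus the median was 28.0 CPM against 155 CPM. Level and locus length were loosely related across loci (Spearman's rho 0.36 over 73 loci, which share libraries; 0.26 over the other 357).

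**Figure D1:**
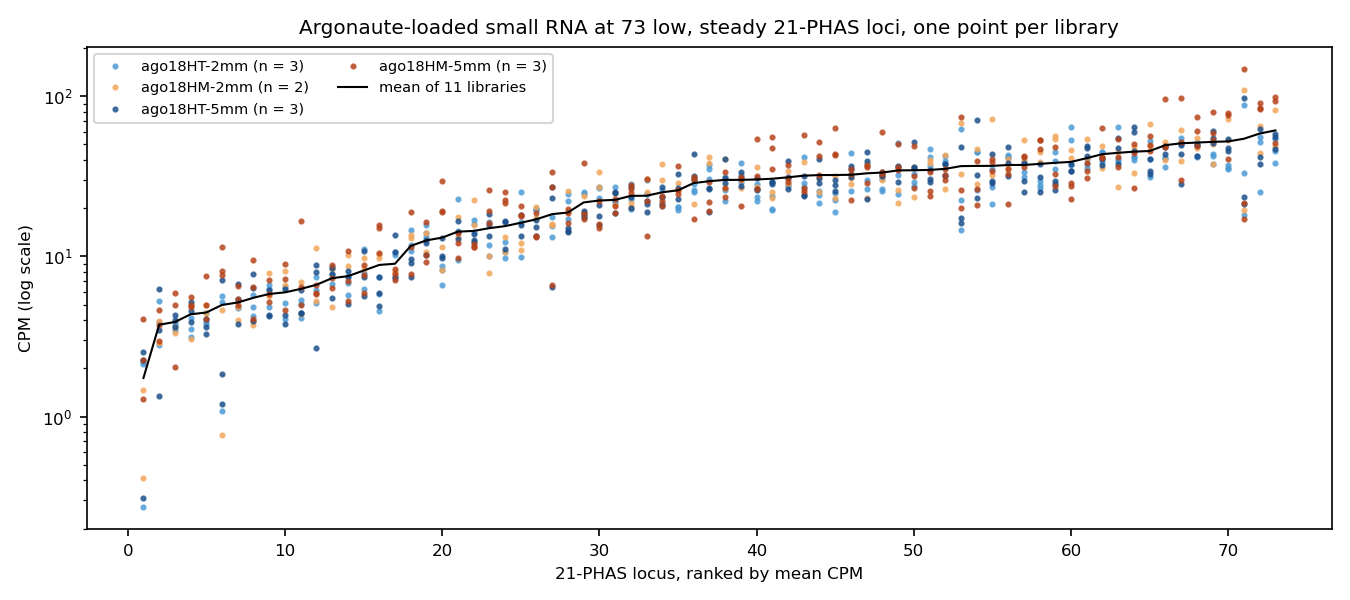
CPM (log scale) of each of the 73 loci in each of the 11 libraries, with loci ranked from left to right by their mean over all libraries (black line). The means run from 1.74 to 61.2 CPM, and for most loci the points of the 4 groups lie among each other.

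At the top of the range was B73_21PHAS_4278 (chr1:182705008-182707629, 2622 bp, the longest of the 73), with a mean of 61.2 CPM. It had 54.4, 45.2 and 38.5 CPM in ago18HT-2mm, 82.2 and 49.0 CPM in ago18HM-2mm, 55.9, 58.0 and 47.0 CPM in ago18HT-5mm, and 98.5, 51.1 and 93.0 CPM in ago18HM-5mm. The ago18HM libraries spread widely and overlapped those of ago18HT at both lengths. B73_21PHAS_52788 (chr10:24648428-24649693) followed with 58.5 CPM, and its 3 ago18HM-5mm values of 91.1, 83.4 and 84.5 CPM lay above its ago18HT-5mm values of 62.8, 41.6 and 37.7 CPM without passing the test (limma, log2 fold change 0.89, adjusted p = 0.0794). B73_21PHAS_7636 came next with 54.2 CPM.

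At the bottom were B73_21PHAS_53638 (chr10:83388808-83389353) with a mean of 1.74 CPM, B73_21PHAS_3915 (chr1:167244645-167245167) with 3.75 CPM and B73_21PHAS_7659 (chr1:290360125-290360441, 317 bp, the shortest of the 73) with 3.89 CPM. B73_21PHAS_7659 had 3.71, 3.90 and 3.48 CPM in ago18HT-2mm, 3.64 and 3.31 CPM in ago18HM-2mm, 3.62, 4.02 and 4.28 CPM in ago18HT-5mm, and 5.90, 2.03 and 4.94 CPM in ago18HM-5mm. It thus stayed within a narrow band in all groups but the last, whose range enclosed all other values.

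The thresholds cut through a continuous range of loci. B73_21PHAS_4278 was the nearest inside the level threshold at 49.8 CPM in ago18HT, and B73_21PHAS_11732 the nearest outside at 50.1 CPM. At the lower ratio, B73_21PHAS_11757 was inside at 0.691 and B73_21PHAS_21247 outside at 0.657. At the upper ratio, B73_21PHAS_15747 was inside at 1.391 and B73_21PHAS_54546 outside at 1.411. Of the 116 21-PHAS loci below the level threshold, 12 had a ratio at or under the lower bound and 27 at or over the upper one.

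The CPM denominators, recovered from the step between values, were 33076189 to 53038060 reads for the 5 libraries of 2-mm anthers but 5419067 to 17805878 for the 6 of 5-mm anthers, so depth and anther length cannot be told apart. A floor of 3 reads corresponds to 0.0566 to 0.554 CPM, which covers counting error only. The summed level of the 73 loci was 1789 ± 61.9 CPM in ago18HT-2mm (SD, n = 3), 1991 ± 29.9 in ago18HM-2mm (n = 2), 1827 ± 105.0 in ago18HT-5mm (n = 3) and 2111 ± 314.0 in ago18HM-5mm (n = 3). These sums were 2.31%, 2.11%, 2.49% and 2.45% of the summed CPM of all 21-PHAS loci. The ratio of ago18HM to ago18HT was 1.11 at 2 mm and 1.16 at 5 mm, and it lay below 1 at both lengths (0.932 and 0.885) when reads of meiotic 24-PHAS loci, which yield 24-nt phasiRNAs from meiosis on, were taken out of the denominator.

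One library stood apart at these loci. ago18HM-5mm replicate 1 was the highest of the 11 libraries at 32 of the 73 loci (43.8%), against 90 of the other 357 21-PHAS loci (25.2%). Relative to its group mean, its log2 level was 0.19 higher at the median locus of the 73 and -0.01 at that of all other 21-PHAS loci. It also was the deepest of the 5-mm libraries, and the part of depth in its position was not tested. The number of calls in each comparison below is therefore given with and without it.

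To ask whether the loci that were steady in ago18HT were also steady in the triple mutant, 5-mm and 2-mm anthers of ago18HM were compared. The level and ratio thresholds did not use these libraries. The loci left out by number, however, included all 21-PHAS loci called lower in ago18HM than in ago18HT, so the list was not independent of them. Of the 73 loci, 54 (74.0%) kept their ratio between the same bounds in ago18HM, 5 were at or below the lower bound and 14 at or above the upper one. The ratio ran from 0.597 to 2.73 with a median of 1.05, and without ago18HM-5mm replicate 1 the counts were 55, 8 and 10. The more abundant 21-PHAS loci that were steady in ago18HT kept to the window in 157 of 214 cases (73.4%), the loci that fell in ago18HT did so in 33.8% and those that rose in 45.8%. No test was made of these shares, since loci of one library are not replicates. They also leave out the 4 loci that met the thresholds but were left out by number. Of these, B73_21PHAS_6427 went from a mean of 22.0 CPM in ago18HM-2mm to 4.75 CPM in ago18HM-5mm, and B73_21PHAS_7645 from 9.34 to 41.4 CPM. B73_21PHAS_7757 went from 39.4 to 33.3 CPM and B73_21PHAS_21103 from 25.7 to 25.8 CPM.

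**Figure D2:**
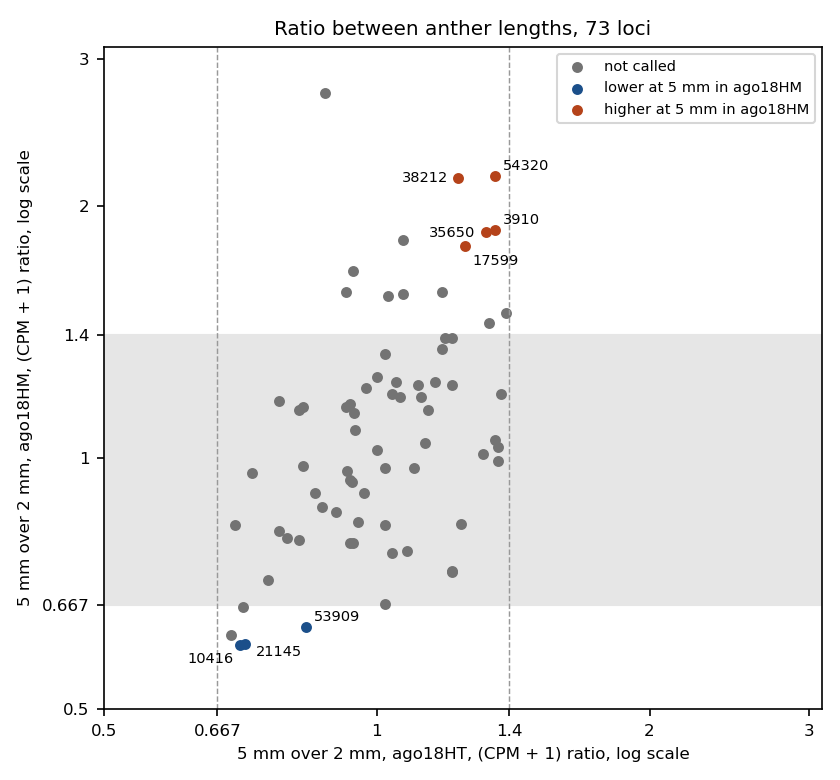
Ratio of the 5-mm to the 2-mm mean, with 1 CPM added to each, in ago18HT (x axis) and ago18HM (y axis), both on log scales, with 1 point per locus. Dashed lines mark the bounds of 0.667 and 1.4 that chose the loci in ago18HT, and the grey band marks the same bounds in ago18HM, inside which 54 of the 73 points lie; called loci are coloured and numbered.

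In the limma fit, with log2(CPM + 1) as the scale of all fold changes and Benjamini-Hochberg adjustment over all 659 loci, a locus was called where the adjusted p fell under 0.05 and the level differed by over 1.5-fold. Of the 73 loci, 5 were higher and 3 were lower at 5 mm than at 2 mm in ago18HM, beside 3.95% of all loci called higher and 20.2% called lower. Among the other 21-PHAS loci 4.76% were higher and 17.9% lower, and among the more abundant steady ones 2.34% and 10.7%. At an unadjusted p below 0.05 and whatever the fold change, 9 of the 73 were higher and 8 lower, beside 56 and 189 of all 659. The other 357 21-PHAS loci had 43 higher and 96 lower on this measure. The median log2 fold change was 0.06 over the 73 loci, -0.14 over the other 21-PHAS loci and -0.22 over all loci. Over the 73 it turned to -0.05 without ago18HM-5mm replicate 1 and to -0.02 without ago18HM-2mm replicate 2, so its sign rested on single libraries. With the 4 loci that were left out by number but met the thresholds, the counts were 5 higher and 4 lower.

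Among the 5 loci called higher, the largest rise was that of B73_21PHAS_54320 (chr10:112097033-112099261), a 2229-bp locus that overlaps the protein-coding gene LOC100191440. It had 8.28 and 11.5 CPM in ago18HM-2mm and 29.6, 19.2 and 19 CPM in ago18HM-5mm, with no overlap between the lengths (log2 fold change 1.10, SE 0.27, adjusted p = 0.0218). In ago18HT it had 8.69, 6.62 and 8.20 CPM at 2 mm and 10.1, 13.1 and 9.77 CPM at 5 mm. The ago18HM-5mm values were thus the 3 highest of the 11 libraries.

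B73_21PHAS_38212 (chr6:160453810-160454937) had 9.99 and 7.92 CPM in ago18HM-2mm and 26.1, 19.2 and 16.2 CPM in ago18HM-5mm (log2 fold change 1.09, SE 0.29, adjusted p = 0.0243). Its ago18HT values, 16.4, 11.7 and 10 CPM at 2 mm and 18.4, 15.7 and 13.4 CPM at 5 mm, overlapped between the lengths and reached into the range of ago18HM-5mm. B73_21PHAS_35650 (chr6:76103358-76103903) had 13.2 and 10.7 CPM in ago18HM-2mm and 25.1, 21.6 and 22.5 CPM in ago18HM-5mm (log2 fold change 0.90, SE 0.23, adjusted p = 0.0243). Its 3 ago18HM-5mm values lay above all its ago18HT values, which ran up to 16.7 CPM.

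B73_21PHAS_3910 (chr1:167221049-167223118) had 23.2 and 25.2 CPM in ago18HM-2mm and 55.8, 34.9 and 47.2 CPM in ago18HM-5mm (log2 fold change 0.88, SE 0.22, adjusted p = 0.0222). B73_21PHAS_17599 (chr3:132668945-132670074) had 23.1 and 31.8 CPM in ago18HM-2mm and 63.6, 43.5 and 42.7 CPM in ago18HM-5mm (log2 fold change 0.83, SE 0.24, adjusted p = 0.0343). At both loci the lengths did not overlap in ago18HM, and ago18HM-5mm replicate 1 was the highest library. All 5 of these loci had an ago18HT ratio above 1 but inside the bounds, from 1.23 to 1.35.

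The 3 loci that fell in ago18HM had ratios below 1 in ago18HT as well. B73_21PHAS_10416 (chr2:54353002-54354361) had 38.1 and 41.6 CPM in ago18HM-2mm and 29.2, 21.8 and 19.2 CPM in ago18HM-5mm (log2 fold change -0.76, SE 0.24, adjusted p = 0.0426). B73_21PHAS_21145 (chr4:4200098-4200894) had 33.4 and 27.3 CPM in ago18HM-2mm and 16.0, 22.3 and 15 CPM in ago18HM-5mm (log2 fold change -0.75, SE 0.23, adjusted p = 0.0407). Neither overlapped between the lengths in ago18HM, and in ago18HT their ratios were 0.706 and 0.716 (0.835 for the locus that follows). B73_21PHAS_53909 (chr10:94274932-94275524) had 22.5 and 15.7 CPM in ago18HM-2mm and 11.4, 12.0 and 11.4 CPM in ago18HM-5mm (log2 fold change -0.65, SE 0.21, adjusted p = 0.0470). Its RNA is the one shared with B73_21PHAS_21287, which had 334 and 259 CPM in ago18HM-2mm and 191, 133 and 184 CPM in ago18HM-5mm.

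These calls depended on single libraries. Without ago18HM-2mm replicate 1 there were 0 higher and 0 lower calls among the 73, and without ago18HM-2mm replicate 2 there was 1 of each; the lone library is then assumed to vary as the other groups do. The higher calls numbered 3 without ago18HM-5mm replicate 2, 2 without ago18HM-5mm replicate 3, and 4 without ago18HM-5mm replicate 1. Without this last library the lower calls again numbered 3, but 1 of them was shared with the 3 named above. The lower calls numbered 0 without ago18HT-2mm replicate 2 or 3, ago18HT-5mm replicate 2 or 3, or ago18HM-5mm replicate 3, and 1 without ago18HT-5mm replicate 1 or ago18HM-5mm replicate 2. When each library was centred on the median of all 21-PHAS loci, or scaled by median ratios, the split was 5 higher and 0 lower.

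To ask whether the loss of AGO18 altered the loading of these phasiRNAs, ago18HM was compared with ago18HT at each length. The ago18HT values had also chosen the loci. All 21-PHAS loci called lower in ago18HM, 2 at 2 mm and 8 at 5 mm, were among those left out by number. The absence of lower calls among the 73 was thus set by the choice of loci, and the counts are descriptions beside the background. At 2 mm, 0 of the 73 loci were called in either direction by limma, beside 17% of all loci called lower and 1.97% called higher. Meiotic 24-PHAS loci made up 108 of the 112 lower calls. Among the other 21-PHAS loci 0.56% were lower and 3.64% higher, and among the more abundant steady ones 0% and 3.74%. At an unadjusted p below 0.05 and whatever the fold change, 5 of the 73 were higher and 0 lower, beside 70 and 136 of all 659. The other 357 21-PHAS loci had 65 higher and 6 lower on this measure. The voom fit of limma on recovered reads called 1 of the 73 higher. Leaving out ago18HM-2mm replicate 2 or ago18HM-5mm replicate 1 also gave 1 higher call. With the 4 left-out loci that met the thresholds, 1 was called lower (B73_21PHAS_6427, log2 fold change -1.09, adjusted p = 0.0138). The median log2 fold change was 0.10, beside 0.22 in the other 21-PHAS loci and -0.02 in all loci, and it was -0.06 when libraries were centred on 21-PHAS loci.

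At 5 mm, 5 of the 73 loci were higher in ago18HM and 0 were lower, beside 2.58% of all loci called higher and 21.1% called lower. Meiotic 24-PHAS loci made up 130 of the 139 lower calls. Among the other 21-PHAS loci 2.24% were lower and 3.36% higher, and among the more abundant steady ones 0% and 1.87%. At an unadjusted p below 0.05 and whatever the fold change, 7 of the 73 were higher and 1 lower, beside 53 and 146 of all 659. The other 357 21-PHAS loci had 46 higher and 9 lower on this measure. The median log2 fold change was 0.17, with 0.10 in the other 21-PHAS loci and 0.01 in all loci, and that of the 73 loci was 0.06 without ago18HM-5mm replicate 1. With the 4 left-out loci that met the thresholds, the counts were 5 higher and 2 lower, the lower ones being B73_21PHAS_6427 (log2 fold change -2.71) and B73_21PHAS_21103 (-0.64, adjusted p = 0.0340). Of the 5 higher calls, 3 (B73_21PHAS_54320, B73_21PHAS_17599 and B73_21PHAS_3910) were among the loci that also rose between lengths in ago18HM; both comparisons use the same ago18HM-5mm libraries.

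B73_21PHAS_17107 (chr3:101764183-101765132, on the + strand) had the largest difference of the 5 called loci. It had 4.88, 7.42 and 5.89 CPM in ago18HT-5mm and 15.7, 10.5 and 15 CPM in ago18HM-5mm (log2 fold change 1.06, SE 0.25, adjusted p = 0.00935). At 2 mm it had 7.41, 5.84 and 4.55 CPM in ago18HT and 9.80 and 10.3 CPM in ago18HM, a difference of 0.69 on the log2 scale that missed the threshold (adjusted p = 0.121). Every ago18HM library thus lay above every ago18HT library at both lengths. The locus overlaps the protein-coding gene LOC103650339, its nearest other 21-PHAS locus is 12738217 bp away, and its most abundant RNA is one of the 8 that begin with C. Its call at 5 mm was kept in all 20 alternatives that gave a value, with adjusted p from 0.0043 to 0.0410.

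B73_21PHAS_54320 had 10.1, 13.1 and 9.77 CPM in ago18HT-5mm and 29.6, 19.2 and 19 CPM in ago18HM-5mm (log2 fold change 0.96, SE 0.24, adjusted p = 0.0151). B73_21PHAS_17599 had 29.9, 25.5 and 28.1 CPM in ago18HT-5mm and 63.6, 43.5 and 42.7 CPM in ago18HM-5mm (log2 fold change 0.80, SE 0.22, adjusted p = 0.0212). Neither locus overlapped between the genotypes at 5 mm, and at 2 mm neither difference passed the test (0.29 at both loci, adjusted p = 0.532 and 0.468). The call for B73_21PHAS_54320 was lost without ago18HT-5mm replicate 1 (adjusted p = 0.0544) or replicate 3 (0.0621). That for B73_21PHAS_17599 was lost without ago18HT-5mm replicate 2 (0.0821) or replicate 3 (0.0611), and with the replicate number as a term in the fit.

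B73_21PHAS_39478 (chr7:8600559-8601478) had 31.5, 25.4 and 37.7 CPM in ago18HT-5mm and 53.1, 47.1 and 53.0 CPM in ago18HM-5mm (log2 fold change 0.69, SE 0.18, adjusted p = 0.0160). It was also higher in both ago18HM-2mm libraries (44.6 and 38.7 CPM) than in the 3 ago18HT-2mm ones (29.7, 26.8 and 28.1 CPM), by 0.54 on the log2 scale, short of the threshold (adjusted p = 0.0950). Its call at 5 mm was lost without ago18HT-5mm replicate 2 (adjusted p = 0.0713) or ago18HM-5mm replicate 3 (0.0548), and in a fit of the 5-mm groups alone (0.0592). B73_21PHAS_39476, a neighbour 2323 bp away that is also among the 73, had 39.5, 26.2 and 31.3 CPM in ago18HT-5mm and 29.1, 31.0 and 37.4 CPM in ago18HM-5mm, which overlapped.

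B73_21PHAS_3910 had 28.2, 29.0 and 29.2 CPM in ago18HT-5mm and 55.8, 34.9 and 47.2 CPM in ago18HM-5mm (log2 fold change 0.63, SE 0.20, adjusted p = 0.0428). The genotypes did not overlap at 5 mm, while at 2 mm the ago18HT values of 23.7, 19.6 and 19.9 CPM and the ago18HM values of 23.2 and 25.2 CPM did. This call was the least stable of the 5, and was kept in 8 of 21 alternatives (adjusted p from 0.0107 to 0.116). Over all 73 loci, the number of higher calls at 5 mm was 3 without ago18HT-5mm replicate 1, 2 without ago18HT-5mm replicate 2, 2 without ago18HT-5mm replicate 3 and 3 without ago18HM-5mm replicate 3. Without ago18HM-5mm replicate 1 it was 5, of which 4 were shared with the 5 named above.

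**Figure D3:**
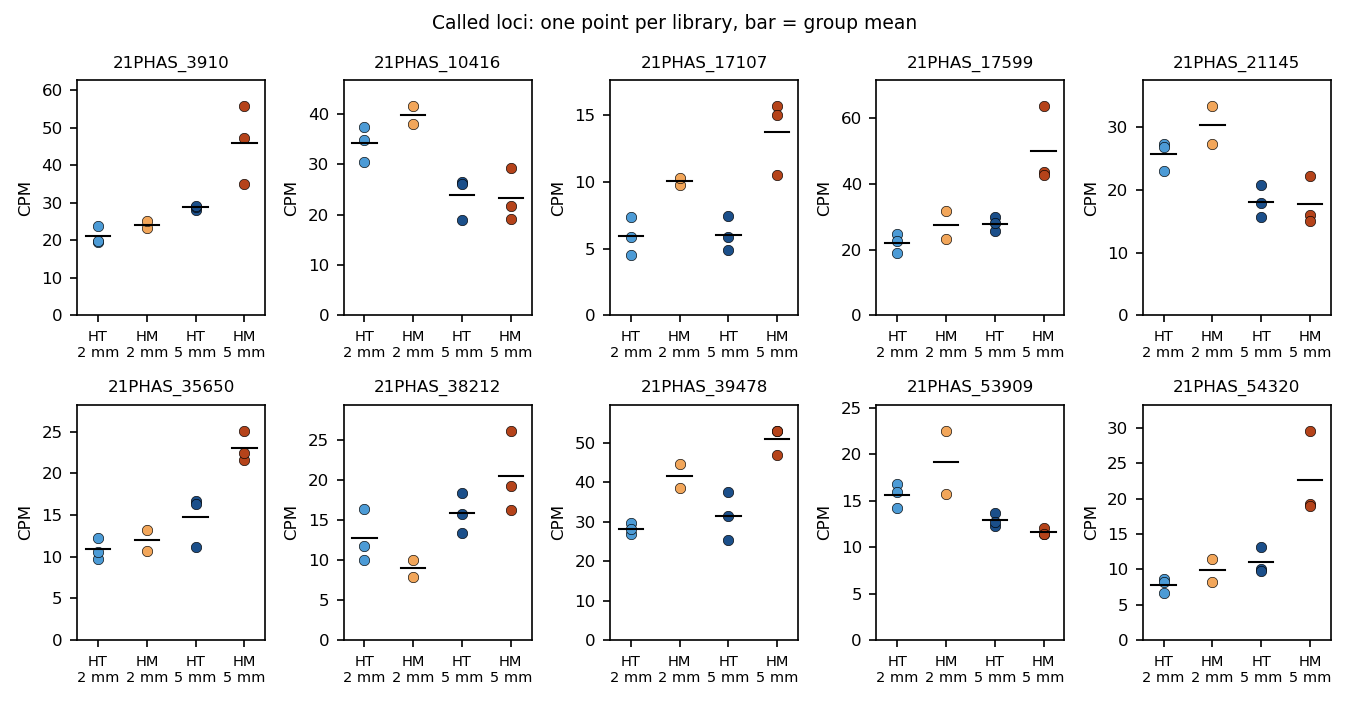
CPM of the 10 loci called in any comparison, with 1 point per library and a bar at the group mean, for ago18HT (HT) and ago18HM (HM) at 2 mm and 5 mm; each vertical axis starts at 0. At B73_21PHAS_17107 and B73_21PHAS_39478 the ago18HM points lie above the ago18HT points at both lengths, and the lower calls (B73_21PHAS_10416, B73_21PHAS_21145 and B73_21PHAS_53909) are also lower at 5 mm than at 2 mm in ago18HT.

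No locus of the 73 was called for a difference between genotypes that itself changed from 2 mm to 5 mm (limma, 0 higher and 0 lower). The shares were 0.152% higher and 8.04% lower over all loci, and 0% and 0.28% over the other 21-PHAS loci. At an unadjusted p below 0.05 and whatever the fold change, 1 of the 73 was lower and 0 higher, beside 100 and 4 of all 659. The other 357 21-PHAS loci had 14 lower and 3 higher on this measure. The voom fit on recovered reads called 0, and so did the fit without ago18HM-5mm replicate 1. With the 4 left-out loci that met the thresholds, 1 was called lower (B73_21PHAS_6427, -1.63, adjusted p = 0.0301). The choice of loci had held the ago18HT change between lengths within narrow bounds, so this comparison mostly follows the ago18HM change. Its counts are descriptions, and they do not decide whether the genotype difference changed with length. In all, 10 of the 73 loci were called in at least 1 of the comparisons between lengths in ago18HM or between genotypes, and 63 were called in none. The same count was not made over all loci, so whether this is few or many cannot be said.

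By 5′ base, the 58 loci with a 5′ A had a median log2 fold change between genotypes of 0.12 at 2 mm and 0.18 at 5 mm. The 8 loci with a 5′ C had 0.06 and 0.10, and the 5 loci with a 5′ G had -0.06 and -0.20. The ranges of the 3 sets overlapped widely at 5 mm, from -0.50 to 1.43 for A, from -0.41 to 1.06 for C and from -0.44 to 0.26 for G.

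Replicates of a group differed by more than counting error at all 73 loci, as they did at 658 of all 659 loci. The within-group SD of log2(CPM + 1) had a median of 0.28 (0.15 to 1.41), where counting error alone would give a median of 0.08. It exceeded 0.5 at 9 loci and 1 at 1 locus, beside 164 and 32 of all 659 loci. Of the 214 more abundant steady 21-PHAS loci, 16 exceeded 0.5 and 5 exceeded 1, with a median of 0.23 and 0.03 from counting. The smallest spread was that of B73_21PHAS_54513 (chr10:118815444-118816319) and B73_21PHAS_53909, both at 0.15. B73_21PHAS_54513 had 40.5, 38.0 and 35.7 CPM in ago18HT-2mm, 54.1 and 40.9 CPM in ago18HM-2mm, 47.4, 49.1 and 42.6 CPM in ago18HT-5mm, and 30.9, 34.1 and 38.2 CPM in ago18HM-5mm, where its 3 values lay below those of ago18HT-5mm without a call (log2 fold change -0.42, adjusted p = 0.114).

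The largest spreads, at loci of chromosome 1, did not follow genotype or anther length. B73_21PHAS_7636 (chr1:290185167-290185982, SD 1.41) had 18.2, 33.3 and 87.5 CPM in ago18HT-2mm, 19.6 and 109 CPM in ago18HM-2mm, 21.1, 23.5 and 97.7 CPM in ago18HT-5mm, and 148, 21.6 and 17.2 CPM in ago18HM-5mm. One library of each group was thus high: ago18HT-2mm replicate 3, ago18HM-2mm replicate 2, ago18HT-5mm replicate 3 and ago18HM-5mm replicate 1. B73_21PHAS_7747 (chr1:291616370-291617021, SD 0.93) was highest in the same 4 libraries, at 62.8, 68.3, 48.3 and 74.0 CPM, while its other 7 libraries ran from 14.7 to 32.7 CPM. B73_21PHAS_7739 (chr1:291475242-291475989), between them on the chromosome and picked once its values were known, had 42.0, 38.8, 31.6 and 57.2 CPM in these 4 libraries and 23.9 to 28.9 CPM in the other 7. B73_21PHAS_7650 and B73_21PHAS_7659 also lie between them but did not have this pattern. B73_21PHAS_7650 had 34.9 to 37.2 CPM in ago18HT-2mm and 53.4 to 72.0 CPM in ago18HM-2mm. Of these 4 libraries, the 2-mm ones were the lowest of their groups at B73_21PHAS_7659 (3.48 and 3.31 CPM). The 5-mm ones were the highest of theirs (4.28 and 5.90 CPM).

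Nearby loci that were left out by number, with earlier results of these data known, are no separate support for this pattern. At those loci the same 4 libraries were the high ones. B73_21PHAS_7740, which lies 244 bp from B73_21PHAS_7739, had 124, 130, 208 and 275 CPM in them and 0.622 to 2.95 CPM in the other 7. B73_21PHAS_7757 had 75, 78.7, 83.1 and 98.2 CPM in them and at most 1.34 CPM elsewhere. B73_21PHAS_7744, with which B73_21PHAS_7747 shares its most abundant RNA, had 47.3, 68.6, 90.2 and 123 CPM in them and 3.71 to 12.3 CPM elsewhere. The labels give the genotype of the plants as mostly B73, no library has a genotype for this interval, and the part of haplotype or of shared reads was not tested.

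Other loci with a large spread had other low libraries. B73_21PHAS_52784 (chr10:24566680-24568251, SD 0.87) had 5.22, 1.09 and 5.67 CPM in ago18HT-2mm, 0.773 and 4.61 CPM in ago18HM-2mm, 7.08, 1.85 and 1.20 CPM in ago18HT-5mm, and 11.5, 8.12 and 7.64 CPM in ago18HM-5mm. It had the highest ago18HM ratio between lengths, 2.73, but its difference between lengths was not called (log2 fold change 1.66, adjusted p = 0.127). Its ago18HM-5mm values lay above all its other values. Its genotype difference at 5 mm was the largest of the 73, also without a call (limma, log2 fold change 1.43, adjusted p = 0.171). B73_21PHAS_53638, the locus with the lowest level, had 2.20, 0.272 and 2.13 CPM in ago18HT-2mm, 0.415 and 1.46 CPM in ago18HM-2mm, 2.52, 0.309 and 2.27 CPM in ago18HT-5mm, and 2.25, 1.29 and 4.04 CPM in ago18HM-5mm. Both were low in replicate 2 of ago18HT-2mm, replicate 1 of ago18HM-2mm and replicate 2 of ago18HT-5mm, although they lie far apart on chromosome 10. They differed in ago18HT-5mm replicate 3, where B73_21PHAS_52784 had 1.20 CPM, its lowest of that group, and B73_21PHAS_53638 had 2.27 CPM. In ago18HM-5mm the lowest library was replicate 3 for B73_21PHAS_52784 and replicate 2 for B73_21PHAS_53638. B73_21PHAS_12193 (chr2:163878404-163878741, SD 0.85) was low in ago18HT-5mm replicate 3 (6.42 CPM) and ago18HM-5mm replicate 2 (6.64 CPM), and ran from 13.3 to 33.6 CPM in the other libraries.

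**Figure D4:**
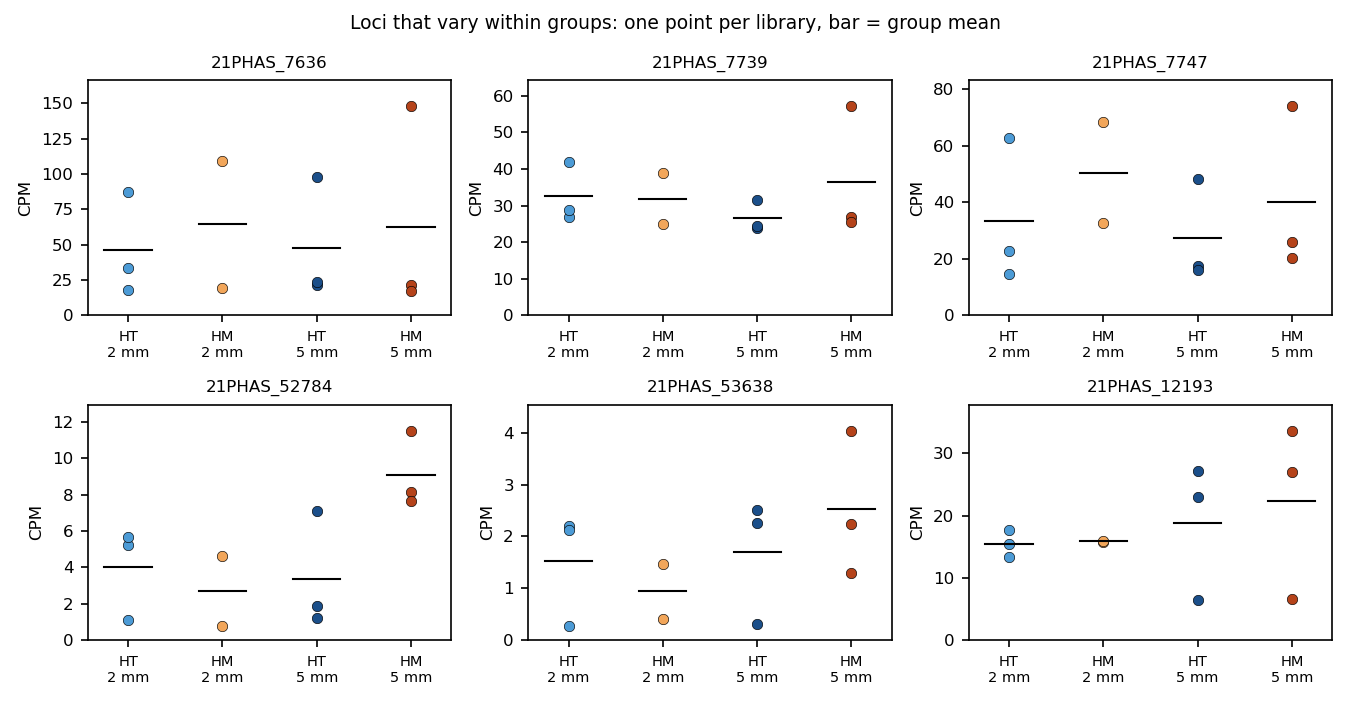
CPM of 6 loci that vary within groups, with 1 point per library and a bar at the group mean, for ago18HT (HT) and ago18HM (HM) at 2 mm and 5 mm. At the 3 loci of chromosome 1 (upper row) 1 point of each group stands above the rest, up to 148 CPM at B73_21PHAS_7636, while at the loci of the lower row 1 or more points of a group stand well below its highest one.

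**Figure D5:**
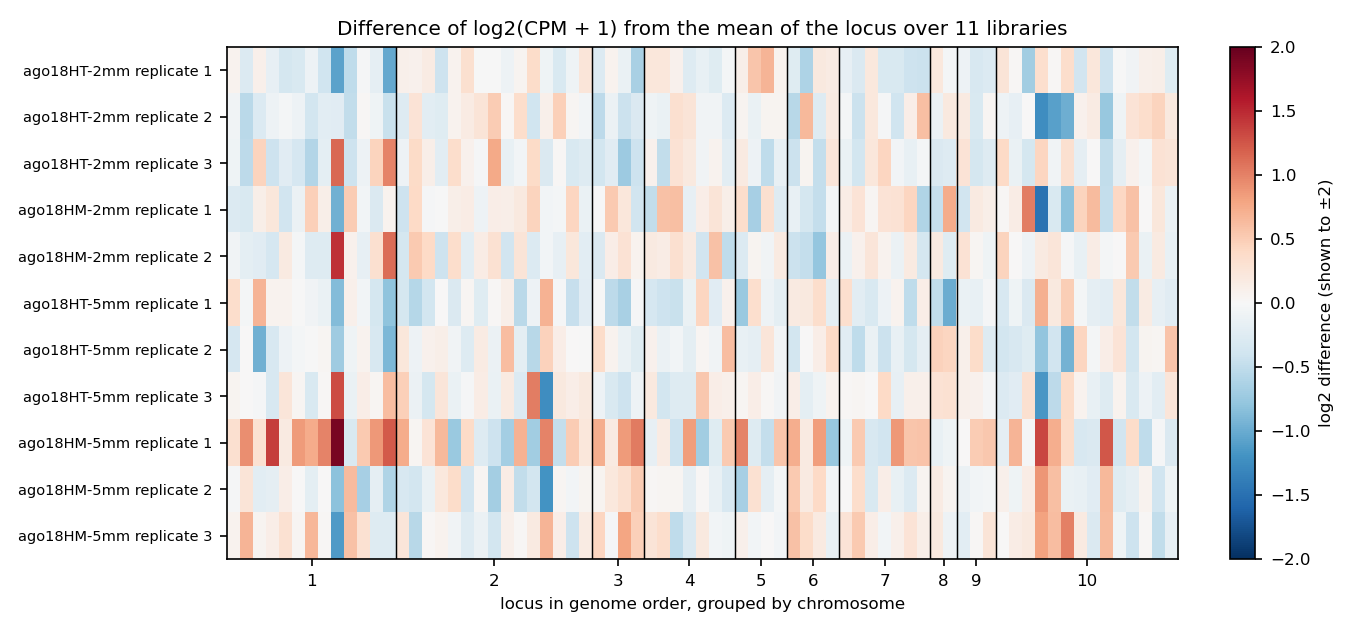
Difference of log2(CPM + 1) from the mean of the locus over the 11 libraries, for the 73 loci in genome order (columns, grouped by chromosome) and each library (rows). Red cells mark higher and blue cells lower levels; the row of ago18HM-5mm replicate 1, the highest library at 32 of the 73 loci, has the most dark red cells, and B73_21PHAS_7636 and B73_21PHAS_7747 toward the right end of chromosome 1 alternate between red and blue within each group.

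The 73 loci lay on all 10 chromosomes. Chromosome 2 held 15 of them, chromosome 10 held 14 and chromosome 1 held 13. Chromosome 10 held 19.2% of the 73 and 9.52% of the other 21-PHAS loci, so that 29.2% of its 21-PHAS loci were among the 73. Coordinates are those of B73 RefGen_v5.

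Another 21-PHAS locus lay within 10 kb of 43 of them (58.9%, against 67.2% of the other loci) and within 100 kb of 65 (89.0%, against 97.2%). The median gap to the nearest one was 4188 bp, against 3322 bp. For 38 of the 73 (52.1%) this nearest locus was an abundant steady one, and for 10 (13.7%) it was another of the 73. Among all 430 21-PHAS loci, 214 were abundant steady ones and 17.0% were of the 73, so both shares were near those of list size. The closest neighbours among the 73 were B73_21PHAS_48795 and B73_21PHAS_48796 (1187 bp apart on chromosome 9) and B73_21PHAS_27262 and B73_21PHAS_27263 (1878 bp apart on chromosome 5). B73_21PHAS_27262 was highest in ago18HM-5mm replicate 1 (97.2 CPM), a library in which B73_21PHAS_27263 had 36.0 CPM and was next to its lowest value of 27.0 CPM, so the pair stood apart in that library. A RefSeq gene overlapped 6 of the 73 loci (8.22%, against 7.0% of the other loci), 4 of them protein-coding and 2 annotated as long noncoding RNA.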

How the data were processed

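Argonaute-loaded small RNA from 11 anther libraries was isolated with the TraPR kit. The authors mapped reads with Bowtie 1.3.1 to B73 RefGen_v5, counted them over PHAS loci with featureCounts 1.6.3, with reads of several positions counted at each, and deposited CPM values made with edgeR 4.0.2. Loci of similar sequence can therefore share reads, and reads of haplotypes unlike B73 may be lost. Which reads the denominator covers was not given in the sources used here. Of the 11 value columns, 0 had no sample.

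The 73 loci, the lists and the thresholds were chosen with earlier results of these data known. Loci with at least 1 CPM in 2 libraries were kept, which were all 659, the 73 included. Log2(CPM + 1) was fitted in R 4.3.3 with limma 3.58.1 (eBayes with trend, all 11 libraries, 1 mean per group), which was tested on simulated data, and p-values (two-sided) were adjusted by Benjamini-Hochberg over 659 loci. The log2(CPM + 1) scale understates changes of low loci. Summaries were made in Python 3.11.15 with pandas 2.3.3. Reads recovered from the CPM steps (100.0% of values within 0.02 of a whole read) gave the depths, but low values were too few to check the step alone, so a count test was left out and limma's voom fit on these reads was added after the data were seen.

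Loci are named by rule: the 3 highest and 3 lowest mean levels, all calls where a direction had 5 or fewer, the 3 largest and 2 smallest within-group SDs, the loci nearest each threshold, and pairs with a shared RNA or a close position. Others, such as neighbours, B73_21PHAS_7739, B73_21PHAS_7740 and B73_21PHAS_12193, were named for their values. Coordinates, strands and most abundant RNAs are from the locus annotation of the study, and genes from RefSeq (Zm-B73-REFERENCE-NAM-5.0). GC content of the loci and miR2118 matches were not computed. The fits were repeated with each library left out in turn, with the replicate number as a term, with 0.1 or 5 CPM added in place of 1, without the filter or with a mean of at least 10 CPM, with other scalings of the libraries, with an untrended prior, and on the compared groups alone.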

Additional observations from a re-analysis of the deposited data

How the results depend on the processing

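Calls at these low loci depended on the fit. Loci lower at 5 mm in ago18HM numbered 3; there were 0 when libraries were centred on 21-PHAS loci, 0 with median ratio scaling and 0 when only the compared groups were fitted, which also left 0 of the 5 higher calls. One library left out gave 0 to 3 lower and 0 to 5 higher calls there, 0 to 1 higher calls between genotypes at 2 mm and 2 to 6 at 5 mm. At 2 mm, where no locus was called, median ratio scaling and voom each gave 1 higher call. The ratio of summed CPM between genotypes at 2 mm, 1.11, became 0.932 with meiotic 24-PHAS reads out of the denominator and 0.915 as a share of the 21-PHAS sum. That at 5 mm, 1.16, became 0.885 with those reads out. As a share of the 21-PHAS sum, the 5-mm groups were close, at 2.45% in ago18HM and 2.49% in ago18HT. Centring moved the median log2 fold change of all loci by 0.17 between lengths in ago18HM and by -0.16 between genotypes at 2 mm, and median ratio scaling moved it by 0.12 between genotypes at 5 mm. The cause was not tested. Of the 13 named calls, 1 was kept throughout; over all alternatives 184 values kept a call, 88 lost it and 0 reversed.

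Nothing in the labels ties replicate numbers to a shared plant or day, and libraries of 1 number did not deviate together (median correlation of deviations -0.18 over 15 pairs, 5 of them over 0.1; 0.10 over 30 pairs of unlike numbers). With a replicate block, the lower calls between lengths in ago18HM went from 3 to 1, of which 0 were shared, and the higher calls between genotypes at 5 mm from 5 to 4, of which 3 were shared: B73_21PHAS_17599 and B73_21PHAS_3910 were lost. The planned edgeR test on recovered reads was not run, and a fit of only the compared groups does not apply to the change of the genotype difference. In the shallowest library the median of the 73 loci was 133 reads; whether depth bore on the calls was not tested.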
